A study of Sus scrofa with 6 samples.

Results

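The genes MEF2A, MEF2C and MEF2D and the circular RNAs (circRNAs) that lie inside them were followed in brain tissue of wild boar and domestic pig. The gene table held these 3 members among 21280 protein-coding genes, and the circRNA table held 5 members among 11375 circRNAs, 2 inside MEF2C, 3 inside MEF2A and 0 inside MEF2D. Members were taken by gene family and by position. The exception was ssc_circ_2625, a MEF2C circRNA that was selected on its measured TPM, which differed between the breeds in these data, so its values are a description and carry no test. MEF2B, the remaining family member, was in the gene table but too low to be tested.

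The 3 wild boar libraries (boars 1 to 3) were labelled brain. The 3 libraries of the Rongchang pig, a domestic breed (pigs 1 to 3), were labelled cerebrum and taken again from an older deposit. All animals were female and 2 years old, and the title of the series places the tissue in the prefrontal cortex. No treatment or engineered allele was labelled in either group. Breed, labelled tissue and source deposit separate the same libraries, so their contributions cannot be told apart. The labels number the libraries but do not state outright that each came from its own animal, so p-values refer to libraries. On deposited gene TPM they rest on a spread between libraries that was pooled over genes of like level.

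MEF2 proteins are transcription factors of the MADS-box class that bind short A/T-rich DNA elements. In neurons they are switched by calcium: class IIa histone deacetylases hold them in a repressing complex, and calcium-dependent kinases and the phosphatase calcineurin release and activate them. MEF2C is the member most closely tied to the development of cortical neurons, and MEF2A and MEF2D take part in activity-dependent remodelling of synapses. A circRNA forms when a splice donor joins an acceptor that lies upstream of it in the same transcript, and the joined end, the back-splice junction, is what its reads are counted on.

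Levels are in TPM, an abundance scaled by transcript length and library. The deposited protein-coding TPM summed to between 17.17% (wild boar 2) and 40.88% (domestic pig 3) of 1000000, so each gene result is given on deposited TPM and after median-ratio rescaling, which divides each library by its typical ratio to the others. The median log2 change of all tested genes, wild boar minus domestic pig, was -0.41 on deposited and 0.01 on rescaled TPM, and for circRNAs it was -0.45 and -0.10. Back-splice reads, recovered as the smallest whole numbers that fit the circRNA values, numbered 37856, 59048 and 33509 in boars 1 to 3 and 70831, 48609 and 72713 in pigs 1 to 3. Wild boar 2 stood apart from the other libraries: it had the lowest gene sum and the highest level of the muscle list (30.6 rescaled TPM over 4 genes, against 2.53 to 7.3 in the other 5 libraries). Domestic pig 3 had 57.2 rescaled TPM over 5 markers of striatal neurons, against 11.5 to 13.5 in the others.

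MEF2C gives rise to a nested pair of circRNAs on chromosome 2, minus strand. The longer, ssc_circ_2625, lay at chr2:96152766-96165180, spanning 12415 bases, and its recovered spliced length was 433 nt. The shorter, ssc_circ_2626, lay at chr2:96155707-96165180, spanning 9474 bases with a spliced length of 385 nt. They share the right-hand coordinate, which on the minus strand is the acceptor side of the back-splice, and differ on the donor side by 2941 bases of genome and 48 nt of spliced sequence. Among the other circRNAs, 0 used either end of the pair. Both are shorter than the median circRNA of the table, which was 535 nt long and spanned 14150 bases.

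Of the pair, ssc_circ_2625 was the more abundant in every library. Its level was 1.67, 2.1 and 2.04 TPM in boars 1 to 3, from 29, 59 and 29 back-splice reads. In pigs 1 to 3 it was 5.46, 5.75 and 5.28 TPM, from 122, 86 and 97 reads. The 3 values of a breed lay close together and the breeds did not overlap. The means were 1.94 ± 0.236 TPM in wild boar libraries and 5.5 ± 0.233 TPM in domestic pig (n = 3 each, SD), 2.84-fold higher in domestic pig. This is the contrast for which the circRNA was picked, so nothing is read from its size and no test of it is given. Of all 9709 tested circRNAs, 13 (0.134%) passed limma on deposited TPM.

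The log2 change of ssc_circ_2625 was -1.49 on deposited TPM and -0.90 after rescaling of the circRNA table. Without wild boar 2 it was -1.55 and -1.04, and without domestic pig 3 -1.52 and -1.03. As a share of all circRNA TPM of the library it was 0.0836%, 0.104% and 0.0963% in the boars and 0.19%, 0.198% and 0.157% in the pigs. By level it ranked 146, 112 and 126 among all circRNAs in boars 1 to 3 and 38, 43 and 51 in pigs 1 to 3. The breeds thus did not overlap in TPM, in share or in rank. Every wild boar library was below every domestic pig library for 18.2% of tested circRNAs in TPM, for 8.37% in rescaled TPM and for 8.62% as a share.

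ssc_circ_2626 entered by position and could be tested. Its level was 0.517, 1.28 and 0.555 TPM in boars 1 to 3 (8, 32 and 7 reads) and 1.56, 1.13 and 1.53 TPM in pigs 1 to 3 (31, 15 and 25 reads). Wild boar 2 lay inside the domestic pig range, and the other 2 wild boar libraries lay below it. The means were 0.785 ± 0.431 and 1.41 ± 0.242 TPM (n = 3 each, SD). The difference did not pass on deposited TPM (log2 change -0.91, SE 0.40, unadjusted p = 0.0357, limma adjusted p = 0.301) or after rescaling (-0.33, limma adjusted p = 0.857). On deposited TPM it was -0.69, -1.31 and -0.73 without wild boar 1, 2 and 3, and on rescaled TPM -0.10, -0.81 and -0.10. The limma adjusted p ranged from 0.183 to 0.965 over all settings.

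**Figure D1:**
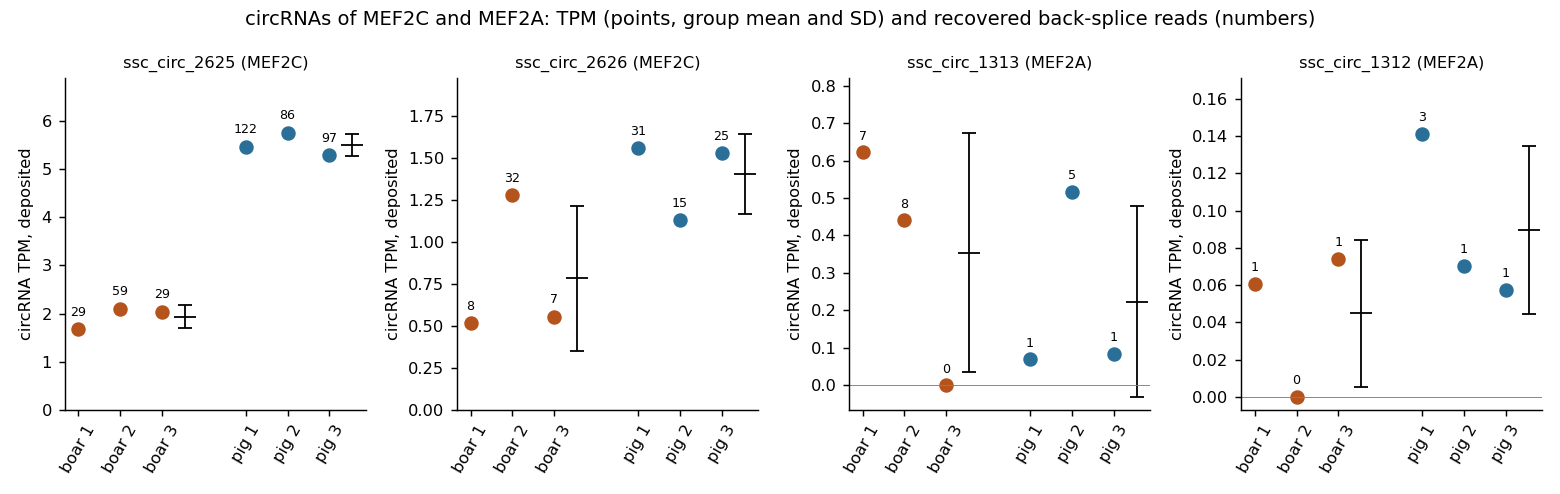
TPM of 4 member circRNAs in each library (points, deposited values; horizontal and vertical bars give the group mean and SD), with the recovered back-splice reads as numbers and a separate vertical scale per panel. ssc_circ_2625 lies between 1.67 and 2.1 TPM in wild boar and between 5.28 and 5.75 TPM in domestic pig, while ssc_circ_2626 overlaps through wild boar 2 and both MEF2A circRNAs rest on at most 8 reads a library.

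The balance within the pair shows the same library. ssc_circ_2626 made up 8 of 37, 32 of 91 and 7 of 36 reads of the pair in boars 1 to 3, that is 21.6% (exact 95% binomial interval 9.83 to 38.2), 35.2% (25.4 to 45.9) and 19.4% (8.19 to 36). In pigs 1 to 3 it made up 31 of 153, 15 of 101 and 25 of 122 reads, or 20.3% (14.2 to 27.5), 14.9% (8.56 to 23.3) and 20.5% (13.7 to 28.7). Wild boar 2 had the highest share, and the other 2 wild boar libraries were within the intervals of the domestic pig libraries. The intervals treat each read as an independent molecule and leave out variation between libraries. Reads without molecular identifiers are not independent molecules, so even the counting error may be understated. As ssc_circ_2625 enters the share, it is a description.

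**Figure D2:**
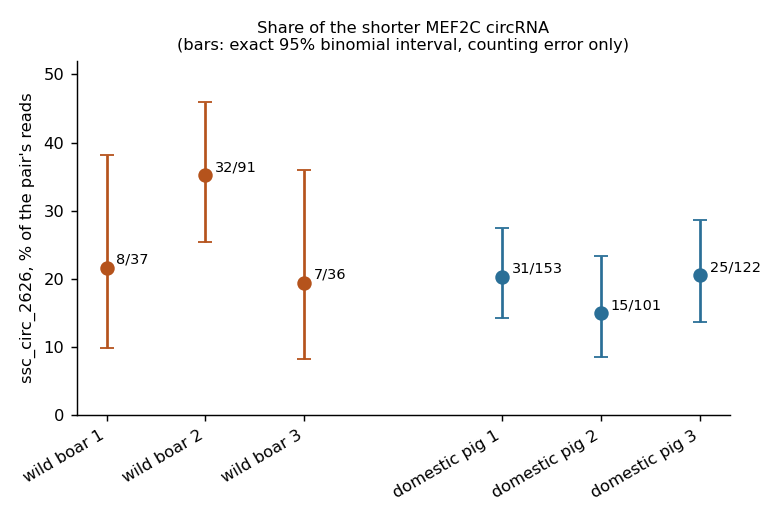
Share of ssc_circ_2626 in the back-splice reads of the MEF2C pair (vertical axis, percent) in each library, with exact 95% binomial intervals and the reads behind each point. The points lie between 14.9% and 21.6% in 5 libraries and at 35.2% in wild boar 2.

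Among the genes themselves, MEF2C was the highest, MEF2A intermediate and MEF2D the lowest in all 6 libraries. MEF2C ranked 236 of 21280 genes by mean TPM (the top 1.11%), MEF2A 1207 (5.67%) and MEF2D 6919 (32.5%). Fewer cells of a type and less RNA per cell cannot be told apart in these bulk libraries. By limma with Benjamini-Hochberg adjustment, 0 of the 3 genes passed on deposited TPM, where 1.6% of 11752 genes did, and 0 of 3 passed on rescaled TPM, where 19.5% did. At an unadjusted p under 0.05 the count was 1 of 3 on each scale, MEF2C both times, where 17.8% of all genes on deposited and 36.8% on rescaled TPM were under it.

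MEF2C was at 108, 49.6 and 136 TPM in boars 1 to 3 and at 139, 197 and 177 TPM in pigs 1 to 3. The breeds did not overlap, by a narrow margin between wild boar 3 and domestic pig 1, and wild boar 2 was by far the lowest. The means were 97.7 ± 44.0 and 171 ± 29.4 TPM (n = 3 each, SD; log2 change -0.90, SE 0.42, unadjusted p = 0.0307, limma adjusted p = 0.246). After rescaling the values were 122, 86.4 and 117 TPM in the boars and 159, 138 and 129 TPM in the pigs, again without overlap (log2 change -0.39, SE 0.17, unadjusted p = 0.0452, limma adjusted p = 0.127). Every wild boar library was below every domestic pig library for 17.1% of tested genes on deposited TPM and 22.1% on rescaled TPM. A lower change than that of MEF2C was seen for 8.17% and 11.8% of tested genes. Over the 6 fits that each left out 1 library, its log2 change ran from -1.20 to -0.48 on deposited TPM and from -0.48 to -0.24 on rescaled TPM, and it passed in none of them. The change nearest 0 was without wild boar 2 on both scales.

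MEF2A was at 31.1, 15.2 and 38.0 TPM in boars 1 to 3 and at 27.7, 51.5 and 46.2 TPM in pigs 1 to 3, and the breeds overlapped. The means were 28.1 ± 11.7 and 41.8 ± 12.5 TPM (n = 3 each, SD; log2 change -0.60, SE 0.42, limma adjusted p = 0.417). Rescaling brought them to 31.5 ± 4.62 and 33.8 ± 2.09 TPM (log2 change -0.11, SE 0.13, limma adjusted p = 0.59), and without wild boar 2 the deposited change was -0.23 and the rescaled change 0.01. The deposited change ran from -0.87 to -0.23 when single libraries were left out.

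MEF2D was at 4.51, 3.35 and 6.88 TPM in boars 1 to 3 and at 2.62, 9.16 and 5.15 TPM in pigs 1 to 3. The wild boar values lay inside the domestic pig range. Its change had a different sign on the 2 scales: -0.09 on deposited TPM (SE 0.38, limma adjusted p = 0.909) and 0.35 on rescaled TPM (SE 0.21, limma adjusted p = 0.255). On rescaled TPM boars 1 to 3 were at 5.14, 5.84 and 5.93 and pigs 1 to 3 at 3.0, 6.4 and 3.77, so domestic pig 2 alone was above the wild boar range. Without domestic pig 2 the rescaled change was 0.59 (limma adjusted p = 0.0208), the only 1 of its 19 settings in which MEF2D passed (range of adjusted p 0.0208 to 0.983). MEF2A and MEF2C passed in 0 of theirs.

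MEF2B, whose transcript is prominent in B cells, was at 0.439, 0.368 and 0.549 TPM in boars 1 to 3 and 0.48, 0.718 and 1.5 TPM in pigs 1 to 3. It was below the level set for testing, and the breeds overlapped.

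**Figure D3:**
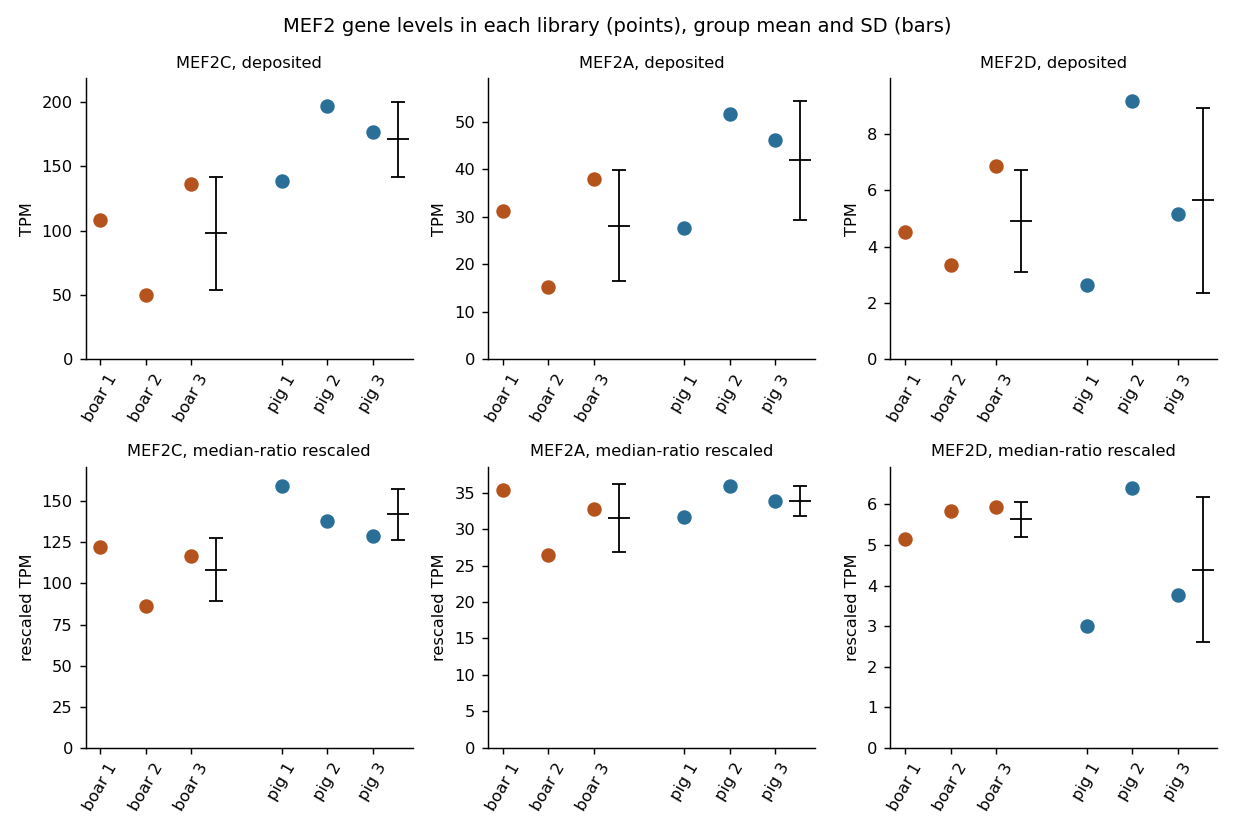
TPM of MEF2C, MEF2A and MEF2D in each library as deposited (upper row) and after median-ratio rescaling (lower row); points are libraries, bars the group mean and SD, and each panel has its own scale from 0. MEF2C is lower in every wild boar library on both scales, wild boar 2 is the lowest deposited value for MEF2C and MEF2A, and domestic pig 2 is the highest for MEF2D.

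Ratios between family members do not depend on the scaling of a library. MEF2C was 3.46, 3.27 and 3.58 times as high as MEF2A in boars 1 to 3 and 5.02, 3.83 and 3.82 times in pigs 1 to 3. The wild boar ratios lay together below all 3 domestic pig ratios. Relative to MEF2A, 10.8% of genes were lower in every wild boar library. The ratio of MEF2C to MEF2D was 23.8, 14.8 and 19.8 in the boars and 53.1, 21.5 and 34.3 in the pigs, with overlap between wild boar 1 and domestic pig 2. The ratio of MEF2A to MEF2D was 6.89, 4.52 and 5.53 in the boars and 10.6, 5.62 and 8.97 in the pigs, also overlapping.

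Circular and gene levels were then compared within each library. Both tables are in TPM, but whether they share 1 scale was not given in the sources used here, so their ratio is read only between libraries and between host genes. The MEF2C pair summed to 2.18, 3.38 and 2.6 TPM in boars 1 to 3 and to 7.02, 6.87 and 6.81 TPM in pigs 1 to 3 (means 2.72 ± 0.609 and 6.9 ± 0.108, SD, n = 3 each). As a percentage of MEF2C gene TPM this was 2.03%, 6.81% and 1.91% in the boars and 5.05%, 3.49% and 3.86% in the pigs. Wild boar 1 and 3 were below every domestic pig library, and wild boar 2 was above all of them. In wild boar 2 the circRNA sum was the highest of its breed and the gene level the lowest. The sum includes ssc_circ_2625, so the sum and its ratio to the gene are a description.

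The mean ratio was 3.58% ± 2.8 in wild boar libraries and 4.13% ± 0.816 in domestic pig (n = 3 each, SD), and the wild boar mean without wild boar 2 was 1.97%. With both tables rescaled the wild boar ratios were 2.2%, 5.3% and 2.48% and the domestic pig ratios 3.88%, 4.25% and 3.76%, in the same arrangement. Over all circRNAs and all protein-coding genes the ratio was 0.861%, 1.18% and 0.683% in boars 1 to 3 and 1.23%, 0.815% and 0.824% in pigs 1 to 3, so wild boar 2 had the highest library-wide ratio of its breed too. The part of this library-wide ratio in the MEF2C values was not tested.

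The measures that leave out ssc_circ_2625 could be tested, 4 in all with MEF2A, by exact two-sided permutation with Benjamini-Hochberg adjustment over the 4, where 3 against 3 allows no p below 0.1, so no result could pass 0.05 and the p-values are given as values only. For the remaining MEF2C circRNA, ssc_circ_2626, the level gave an exact p of 0.2 (adjusted 0.8). Its ratio to the gene was 0.481%, 2.58% and 0.408% in the boars and 1.12%, 0.572% and 0.867% in the pigs (exact p = 1.0, adjusted 1.0), again with wild boar 2 highest and the other 2 wild boar libraries lowest.

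**Figure D4:**
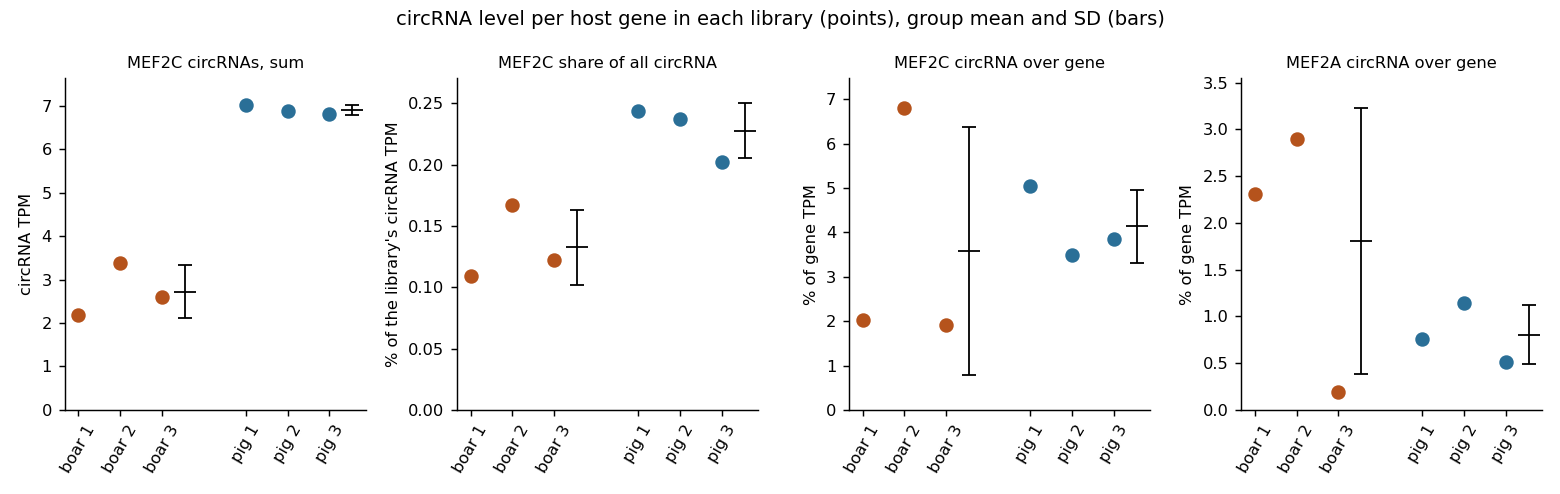
From left to right, summed MEF2C circRNA TPM, its share of all circRNA TPM of the library, its percentage of MEF2C gene TPM, and the same percentage for MEF2A; points are libraries, bars the group mean and SD. With ssc_circ_2625, which was picked on these values, the sum and the share separate the breeds (sum 2.18 to 3.38 against 6.81 to 7.02 TPM). Without it both overlap (sum 0.517 to 1.28 against 1.13 to 1.56 TPM, share 0.0259% to 0.0632% against 0.0389% to 0.0542%). The percentage of gene TPM spans 1.91% to 6.81% in wild boar around the 3.49% to 5.05% of domestic pig.

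The MEF2A circRNAs were scarce. ssc_circ_1313 (chr1:138471133-138472413 on the plus strand, with a spliced length of 280 nt) had 7, 8 and 0 reads in boars 1 to 3 and 1, 5 and 1 in pigs 1 to 3. The change did not pass (log2 0.27, limma adjusted p = 0.912), and it changed sign when single libraries were left out. ssc_circ_1312 (chr1:138468428-138472413, 412 nt) had 1, 0 and 1 reads in the wild boars and 3, 1 and 1 in domestic pig (log2 -0.65, limma adjusted p = 0.663). ssc_circ_10443 (chr1:138468428-138502057, 727 nt) had 1, 0 and 0 reads in the wild boars and 0, 0 and 3 in domestic pig, was above 0 in 2 libraries and was not tested. ssc_circ_1312 shares its end with ssc_circ_1313, which is 132 nt shorter, and its start with ssc_circ_10443.

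Where no read was found, up to 3 may have been missed, which is 0.00413% to 0.00895% of the back-splice reads per library. Without wild boar 3, which had no read of it, ssc_circ_1313 was at a log2 change of 1.49 on deposited (limma adjusted p = 0.341) and 2.04 on rescaled TPM (0.431). A sixth circRNA, ssc_circ_1311 (chr1:138371349-138417939), overlapped MEF2A without lying inside it and is not a member. It had 0, 2 and 0 reads in the wild boars and 3, 1 and 0 in domestic pig.

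Of the 5 member circRNAs 4 passed the filter of a value above 0 in at least 3 libraries. Apart from ssc_circ_2625, 0 of the 3 others passed limma, against 0.134% of all circRNAs on deposited and 0.0206% on rescaled TPM. At an unadjusted p under 0.05 there was 1 on deposited TPM, ssc_circ_2626, and 0 on rescaled TPM, where 14.5% and 9.07% of all circRNAs were under it.

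The summed MEF2A circRNAs were at 0.717, 0.441 and 0.0741 TPM in boars 1 to 3 and 0.21, 0.587 and 0.239 TPM in pigs 1 to 3 (exact permutation p = 0.9, adjusted 1.0, n = 3 each). They made 2.31%, 2.9% and 0.195% of MEF2A gene TPM in the boars and 0.759%, 1.14% and 0.516% in the pigs (exact permutation p = 0.4, adjusted 0.8, n = 3 each). Wild boar libraries lay both above and below the domestic pig range.

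Set among host genes, and with ssc_circ_2625 included, MEF2C had a high circRNA sum and a ratio of circRNA to gene near the middle of the hosts. As ssc_circ_2625 was picked on its values, this place among hosts is a description. Over the 6 libraries ssc_circ_2625 had a mean of 3.72 TPM and ssc_circ_2626 a mean of 1.1 TPM. Without ssc_circ_2625 the ratio averaged 1.16% in wild boar libraries and 0.854% in domestic pig. Of 9382 tested autosomal genes with a symbol and a position, 31.9% held at least 1 circRNA, with a median of 2 per host. Among the 145 of them at or above the mean TPM of MEF2C, 29 (20%) were hosts. The circRNA sum of MEF2C ranked 80 and was above that of 97.3% of hosts. Its ratio to the gene, 3.58% from means over the 6 libraries, was above that of 57.1% of hosts, whose median was 2.77% (quartiles 0.918% and 7.52%). For MEF2A the sum ranked 1242 (above 58.5% of hosts) and the ratio, 1.08%, was above 28.2%. MEF2D had no circRNA in the table, like 69.5% of the 1312 genes within 1.25 times its mean TPM.

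The genes that act on MEF2 were taken as a list of 42, of which 40 were in the table and 39 were tested. It holds the class IIa and partner deacetylases, corepressors, acetyltransferases, calmodulin, calcium-dependent kinases, calcineurin subunits, p38 and ERK5 pathway kinases and salt-inducible kinases. On deposited TPM 0 of the 39 passed (background 1.46% lower and 0.136% higher), 1 had an unadjusted p under 0.05 by limma (17.8% of all genes did), and the median log2 change was -0.26. The lowest p belonged to CAMK2D, a CaMKII subunit gene (log2 change -0.91, limma adjusted p = 0.248), then SIRT1, a deacetylase gene (-0.72, 0.304), PIAS1, a SUMO ligase gene (-0.76, 0.311), and HDAC9, a class IIa deacetylase gene (-0.73, 0.315).

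On rescaled TPM 3 of the 39 regulators passed, all higher in wild boar, and the median was 0.21. That count is not above the background of 8.88% in that direction. CAMK2A and CAMK2B encode the neuronal alpha and beta subunits of the kinase CaMKII. CAMK2A rose from 73.2 ± 18.9 rescaled TPM in domestic pig to 131 ± 13.9 in wild boar (n = 3 each, SD; log2 change 0.86, SE 0.19, limma adjusted p = 0.0195). CAMK2B rose from 33.1 ± 6.12 to 53.5 ± 3.1 (0.69, SE 0.15, limma adjusted p = 0.0185). PRKACA, a catalytic subunit of protein kinase A, rose from 8.3 ± 2.41 to 15.5 ± 2.79 (0.84, SE 0.20, limma adjusted p = 0.0229).

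CALM3, 1 of the 3 calmodulin genes, was at 556 and 376 mean rescaled TPM in wild boar and domestic pig (log2 change 0.58, limma adjusted p = 0.0601). The deposited changes of CAMK2A, CAMK2B and PRKACA were 0.35, 0.19 and 0.36 and did not pass. On rescaled TPM none of the 39 passed without wild boar 3 or domestic pig 1, CAMK2B alone passed without wild boar 2, and CAMK2A and PRKACA passed without wild boar 1. Without domestic pig 3 CAMK2B was higher and CAMK2D lower. Without domestic pig 2 the number that passed was 10, all higher, where 9.53% of all genes were called higher. With quantile normalization CAMK2B and PRKACA passed and CAMK2A did not (limma adjusted p = 0.0557).

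The list of 18 neuronal genes known as targets of MEF2 or induced with it had 17 tested members. On deposited TPM NR4A3 passed, lower in wild boar (background 1.46%), and the median of the 17 was -0.63. NPAS4 was also called lower, but it reached the level for testing only through the domestic pig libraries, where it was high. Its call is therefore a description, is not set against the background, and its p is given as a value only. NPAS4, a transcription factor gene induced by neuronal activity, fell from 1.65 ± 0.83 TPM in domestic pig to 0.312 ± 0.368 in wild boar (n = 3 each, SD; log2 change -1.0, SE 0.24, limma adjusted p = 0.00411). NR4A3, an orphan nuclear receptor gene, fell from 3.3 ± 1.93 to 1.07 ± 0.695 TPM (-1.02, SE 0.30, limma adjusted p = 0.0426). FOS, an immediate early gene, was at 10.7 ± 2.67 TPM in domestic pig and 4.72 ± 3.14 in wild boar (-1.14, limma adjusted p = 0.118), and UBE3A, a ubiquitin ligase gene, was at 42.2 ± 10.8 and 22.5 ± 10.2 TPM (-0.94, limma adjusted p = 0.235).

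On rescaled TPM 1 of the 17 targets passed, UBE3A, lower at 25.1 ± 3.22 in wild boar than at 34.4 ± 1.47 in domestic pig (n = 3 each, SD; log2 change -0.45, SE 0.12, limma adjusted p = 0.0354), against a background of 10.7% lower. This count is not above that background. NR4A3 and NPAS4 were on this scale at -0.71 (limma adjusted p = 0.0802) and -0.84 (0.0907). On deposited TPM NPAS4 kept its call without wild boar 1 and lost it without wild boar 2 or 3, and without any single domestic pig library it no longer passed the filter. NR4A3 kept its call without domestic pig 1 and lost it without any other single library. Without the filter on low values or with the replicate number as a block neither gene was called. Without the trend in limma neither was called (adjusted p = 0.0854 for NPAS4 and 0.0814 for NR4A3), and FOS was. UBE3A was kept on rescaled TPM without wild boar 3 and lost without any other single library. BDNF, ARC and HOMER1, which encode a neurotrophin and 2 synaptic proteins, were at -0.60, -0.78 and -0.88 on deposited and -0.22, -0.34 and -0.38 on rescaled TPM, and did not pass on either. Of the 17 targets, 1 had a log2 change above 0 on deposited TPM and 5 had one on rescaled TPM.

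**Figure D5:**
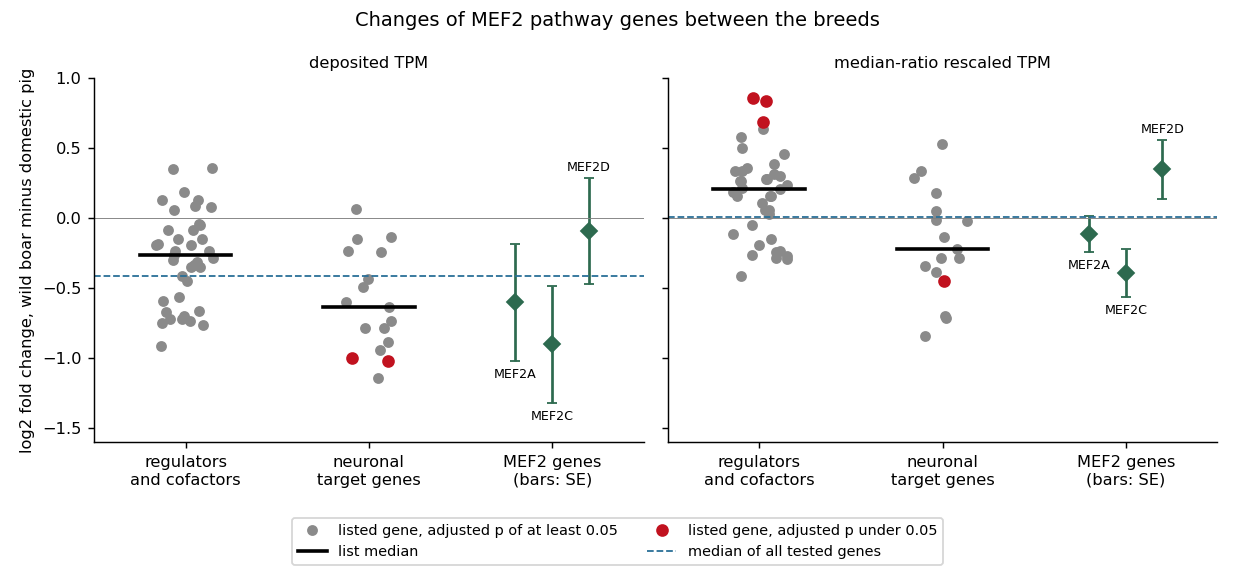
Log2 change, wild boar minus domestic pig, of the 39 regulators, the 17 targets and the 3 MEF2 genes on deposited (left) and rescaled TPM (right); red points passed limma at an adjusted p under 0.05, black lines are list medians, the dashed line is the median of all tested genes, and bars on the MEF2 genes are SE. List medians are -0.26 and -0.63 on the left and 0.21 and -0.22 on the right, and MEF2D moves from -0.09 to 0.35.

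Cell type markers give the setting of these values, as summed rescaled TPM. The 7 markers of glutamatergic neurons, in which cortical MEF2C is found, were at 196 to 227 in wild boar and 123 to 174 in domestic pig. Of these 7, SLC17A7, NEUROD2 and CAMK2A were higher and SLC17A6 lower by limma (backgrounds 8.88% and 10.7%), and CAMK2A also stands on the regulator list. On average CAMK2A made 131 of the wild boar sum and 73.2 of the domestic pig sum, while NEUROD6 was at -0.60 (limma adjusted p = 0.0507). All 3 higher calls were lost without wild boar 2 or 3, and likewise without domestic pig 1, and SLC17A6 was called without any single library. GABAergic markers were at 209 to 253 and 176 to 259 over 7 genes, and pan-neuronal markers at 1240 to 1590 and 1240 to 1660 over 4 genes, with 0 passing in either list. The GABAergic gene VIP was called lower without domestic pig 2, and the pan-neuronal gene RBFOX3 higher without domestic pig 3. Microglia, which also express MEF2C, were at 36.4 to 77.9 and 47.5 to 59.2 over 6 genes, with C1QA higher, a call kept without wild boar 1 and lost without any other single library. Without wild boar 2 P2RY12 was called lower. So the neuron and microglia lists overlapped between breeds, apart from the glutamatergic one, which was higher in every wild boar library.

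Endothelial markers were at 21.9 to 33.9 in wild boar and 14.1 to 15.7 in domestic pig over 4 genes. CLDN5, at 17.9 and 6.74 on average, was higher and kept its call without any single library, and FLT1 was at 2.82 and 2.81. Mural cell markers were at 62 to 76.6 and 52 to 65 over 5 genes, with TAGLN and ACTA2 higher and RGS5 at -0.43 (limma adjusted p = 0.135). Both calls were lost without wild boar 1 or 2, and likewise without domestic pig 1, ACTA2 also without domestic pig 2 or 3, and RGS5 was called lower without wild boar 3. Oligodendrocyte precursor markers were at 44.4 to 52.1 and 29.3 to 43.4 over 4 genes, with OLIG1 and OLIG2 higher. Both calls were lost without wild boar 2 or 3, and likewise without domestic pig 3, and OLIG1 also without wild boar 1 or domestic pig 2. Astrocytes were at 771 to 1070 and 809 to 895 over 5 genes, and oligodendrocytes at 1740 to 2860 and 1990 to 2440 over 4 genes, with 0 passing in each. The astrocyte gene AQP4 was called lower without wild boar 2 and with quantile normalization. Striatal neuron markers were at 11.5 to 13.5 and 11.6 to 57.2, and muscle markers at 2.53 to 30.6 and 2.55 to 7.3. Endothelial, precursor and glutamatergic sums did not overlap between the breeds on this scale. On deposited TPM all 3 did, at 17.3 to 39.3 and 12.3 to 21.7, 29.9 to 51.5 and 37.9 to 46.2, and 130 to 258 and 107 to 250 in wild boar and domestic pig. Their part in the MEF2 results was not tested. The share of all genes with every wild boar library above every domestic pig library was not determined, so nothing is read from the missing overlap. Of all tested genes, 8.88% were called higher and 10.7% lower on rescaled TPM, and 1.46% lower on deposited TPM. No marker in the table was under 0.1 TPM in all libraries, and on deposited TPM 2 markers passed, SLC17A6 and PENK, both lower in wild boar, and both calls were lost without wild boar 1 or 2 or domestic pig 2 or 3.

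The genes with the pattern most like that of each MEF2 gene were found by Pearson's r of rescaled log2 TPM over the 6 libraries, which share scaling factors. For MEF2C they were NGLY1 (r = 0.9998), EMC2 (0.9953) and KLHDC2 (0.9930). NGLY1, an enzyme that removes sugars from misfolded glycoproteins, had a mean of 10.4 TPM in domestic pig and 6.74 TPM in wild boar. For MEF2A they were VIPR1 (0.9808), KCNK2 (0.9803) and BLOC1S5 (0.9768). For MEF2D they were KCNA2, a potassium channel gene (0.9964), MAP1B, a microtubule-associated protein gene (0.9959), and CREBBP, an acetyltransferase gene that is also on the regulator list (0.9926). The search took in those of the 11752 tested genes that had a symbol. With so many genes compared over 6 libraries, such values are a description only.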

How the data were processed

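Per the labels' protocols, Trizol RNA was depleted of ribosomal RNA and made into stranded libraries. The authors deposited TPM for genes and TPM for circRNAs, with 0 unused columns of per-sample values. STAR 2.6.0c and BWA 0.7.17 appear in the submitters' processing notes. Build, annotation, circRNA caller and normalizing set are not given in the sources used here. Gene bounds came from RefSeq Sscrofa11.1, and 14821 gene identifiers matched a symbol. Of the circRNAs, 98.5% lay inside a protein-coding gene, against 40.7% after a shift of 1000000 bases. Circular positions are as deposited, with the start raised by 1.

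Each circRNA TPM equalled whole reads divided by length, times 1 factor per library, for all 11375 circRNAs within a relative tolerance of 1e-05. The lowest whole numbers that gave at least 3 reads in some library were taken, so they are exact only up to a common multiple; 760 circRNAs, none a member, were raised to reach it. TPM keeps no depth for genes.

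Genes of TPM at least 1 in at least 3 libraries were tested on log2(TPM + 1), and circRNAs above 0 in at least 3 on log2(TPM + 0.045). The test was limma (3.58.1, trend on, R 4.3.3), two-sided, with Benjamini-Hochberg adjustment over all features and a threshold of 0.05. Fold changes on these scales understate those of low values. On deposited gene TPM limma pooled the variance wholly over genes of like level, so those SE do not reflect the spread of a single gene. Median-ratio factors used tested genes, or circRNAs above 0 everywhere. Scripts were tested on simulated data.

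Members, lists and tests were chosen with earlier results of these data known. Named were all MEF2 genes, every member circRNA and, per pathway list, the 4 genes of lowest p, of which 1 is not reported here; BDNF, ARC, HOMER1 and the marker genes that passed were named after their values were seen.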

Additional observations from a re-analysis of the deposited data

How the results depend on the processing

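The 188 genes called became 2295 on rescaled TPM, 2368 with quantile normalization, 6 with no filter, 285 without the trend, and 26 to 426 when 1 library was left out (54 and 107 without wild boar 1 and 2, 426, 26 and 26 without domestic pig 1, 2 and 3). The 13 circRNAs called became 2 rescaled, 29 at a pseudocount of 0.2, 6 with no filter, 1 without the trend, and 1 to 25 with 1 library left out (6, 2 and 1 without wild boar 1, 2 and 3, 3, 25 and 20 without domestic pig 1, 2 and 3). With the replicate number as a block 70 genes and 21 circRNAs were called; same-numbered libraries did not deviate together (correlations of -0.16 to 0.11), so the numbers are not taken as pairs. The log2 ratio of breeds for the MEF2C circRNA sum was -1.34, and it was -0.84 without ssc_circ_2625, -0.78 as a share, and -1.53 to -1.21 with 1 library left out. For the ratio to MEF2C gene TPM, -0.20 became 0.44 without ssc_circ_2625 and -1.07 (without wild boar 2) to 0.10 with 1 library left out. The MEF2A sum, at 0.25, ranged from -0.42 (without wild boar 1) to 0.87, with -0.01 without domestic pig 1, and the MEF2A ratio, at 1.16, from 0.63 to 1.69.

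MEF2D, at -0.09, was 0.35 rescaled, 0.33 with quantile normalization, 0.11 without wild boar 2, 0.28 without domestic pig 2, -0.46 without domestic pig 1, and 0.16 to 0.59 rescaled with 1 library left out (0.41 and 0.31 without wild boar 1 and 3). MEF2A was 0.01 rescaled without wild boar 2. ssc_circ_1313, at 0.27, ranged from -0.45 to 1.49, and rescaled from -0.05 to 2.04; ssc_circ_1312 reached 0.10 rescaled without wild boar 2. The cause of these moves was not tested. MEF2C and ssc_circ_2626 kept their direction in each of their 18 and 17 alternatives and passed in none. The share of all features that keep their direction was not determined, so nothing is read from this. The median circRNA change was itself below 0, at -0.45 on deposited and -0.10 on rescaled TPM. A lower change than that of ssc_circ_2626 was seen for 23.8% and 36.0% of tested circRNAs. Rescaled fits with 1 library left out were added after seeing the data. For genes depth is unknown, and the MEF2A circRNAs are limited by their reads.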
